A study of Danio rerio with 2 samples.

Results

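Of the 470 wells with at least 2000 UMIs (unique molecular identifiers, which count captured transcripts), 115 were low in the markers of mature macrophages and neutrophils and are called marker-low wells here. They were selected on their measured transcripts: fewer than 3 UMIs in total of marco, mpeg1.1 and c1qa, under 2% of UMIs from lyz, fewer than 100 UMIs each of the muscle genes pvalb2 and myl13, and fewer than 5 UMIs of col1a1a. The wells were proposed as progenitor-like from hmga1a, npm1a, hmgb2b and cd34, so levels of these genes against other wells are given as a description with no test. The other wells of this depth were 205 with macrophage markers, 112 rich in lyz and 38 with muscle or collagen transcripts.

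Single cells were sorted from dissociated tails of 3 dpf zebrafish embryos, and every embryo carried both the mpeg1:EGFP and the runx1+23:mCherry transgene. The mpeg1 promoter marks macrophages and the runx1+23 enhancer marks hematopoietic stem and progenitor cells (HSPCs), so EGFP+ cells with and without mCherry were compared to ask what macrophages carrying HSPC-derived protein express. Each of 2 plates of 384 wells held both gates, mCherry+ in wells 1 to 192 and mCherry- in wells 193 to 384, and the plate is the replicate. In a sorted mCherry+ cell, protein made by the cell and protein taken up from another cell cannot be told apart, nor can fewer cells of a type and less RNA per cell in summed wells.

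Blood formation at this stage runs through the caudal hematopoietic tissue of the tail, where HSPCs lodge, divide and begin to differentiate. Progenitors are known for high levels of nuclear architecture proteins such as HMGA and HMGB family members, for nucleolar proteins that assemble ribosomes, such as nucleophosmin, and for the surface sialomucin CD34. Commitment replaces this program with lineage genes: PU.1 (SPI1) and C/EBPα (CEBPA) in the myeloid branch, GATA1 and globins in the erythroid branch. Several zebrafish genes carry human-style symbols in the name table used here and are printed as that table gives them.

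Marker-low wells held a median of 7843 UMIs and 2174 genes, against 10901 UMIs in macrophage-marker wells and 8736 in lyz-rich wells. Within the rule, 79 wells had 0 UMIs of the marker trio, 24 had 1 and 12 had 2, and just outside it 9 wells had 3 and 6 had 4. The highest lyz share inside was 1.79% and the lowest in a lyz-rich well was 2.03%. The shallowest marker-low well had 2097 UMIs, and the deepest well left out for depth had 1964. Levels are given as CPM, the UMIs of a gene or list scaled to 1000000 UMIs of the well or of the summed wells. On that scale the shallowest well, on plate 2, had 260826 CPM of muscle transcripts, since the muscle limit is a number of UMIs and not a share. All of these wells had been sorted as EGFP+.

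At full depth marker-low wells were more frequent among mCherry+ wells on both plates, and the difference exceeded counting error on plate 1 alone. On plate 1 they were 60 of 123 mCherry+ wells (48.8%, 95% exact Clopper-Pearson interval 39.7 to 58.0) and 33 of 140 mCherry- wells (23.6%, 16.8 to 31.5). On plate 2 they were 14 of 106 mCherry+ wells (13.2%, 7.41 to 21.2) and 8 of 101 mCherry- wells (7.92%, 3.48 to 15.0). The intervals cover counting error only and separate the gates on plate 1 and not on plate 2. With the rule applied after thinning each well to 2000 UMIs, the order on plate 2 turned, with 32.1% of mCherry+ and 38.6% of mCherry- wells, and on plate 1 the shares were 57.7% and 45.7%. With 2 plates the exact permutation test cannot go below p = 0.5, so no test of the share was made. The plot of shares by gate shows that the plates differed more than the gates did.

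**Figure D1:**
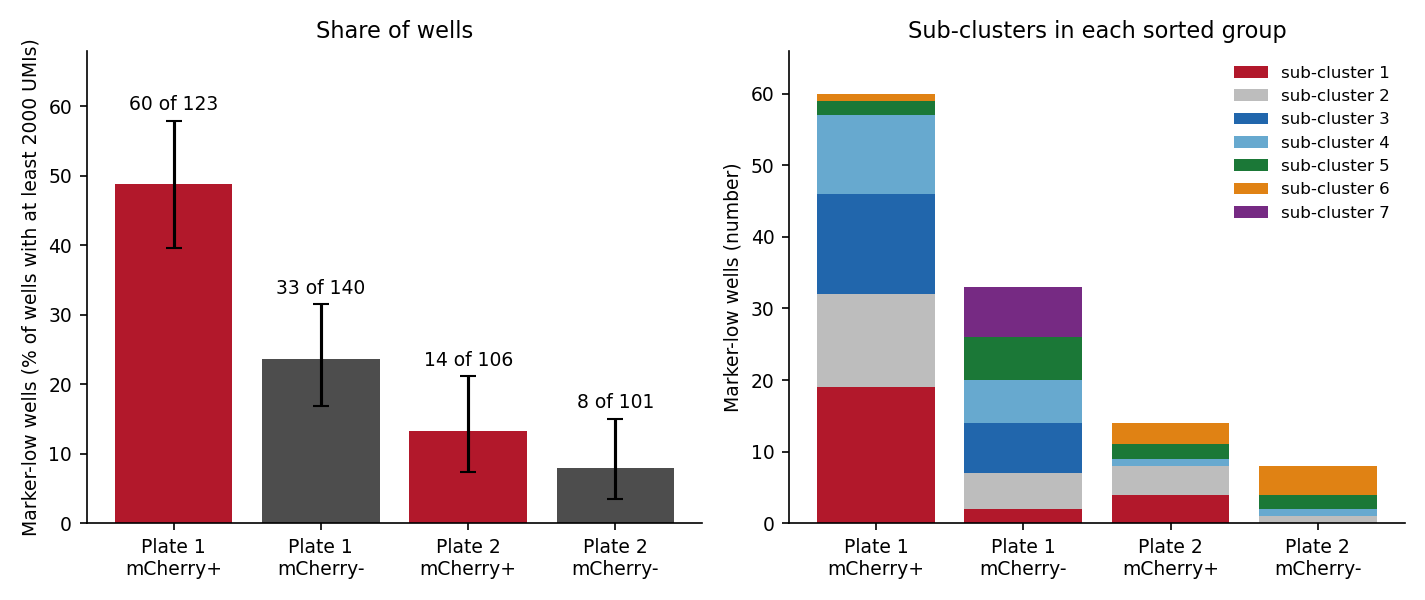
Left, marker-low wells as a percentage of wells with at least 2000 UMIs in each plate and gate, with 95% Clopper-Pearson intervals and the well counts above each bar. Right, the number of marker-low wells in each of 7 sub-clusters; sub-cluster 1 supplied 19 of 60 wells in the plate 1 mCherry+ group and sub-cluster 7 is present in the plate 1 mCherry- group alone.

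Across the 4 sorted groups, hmga1a was the most widely detected of the 4 proposed markers. This gene, which encodes an AT-hook chromatin protein, had a UMI in 93.3% of plate 1 mCherry+ wells, 81.8% of plate 1 mCherry- wells, 100% of plate 2 mCherry+ wells and 87.5% of plate 2 mCherry- wells. Its median level was 2599, 699.5, 2188 and 1260 CPM in the same order, and single wells ranged from 0 to 8499 CPM on plate 1. The mCherry- medians were the lower ones on both plates, with ranges that overlapped between gates.

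The transcript of npm1a, a nucleolar chaperone, had medians of 308.5, 160.4, 746.2 and 99.8 CPM in plate 1 mCherry+, plate 1 mCherry-, plate 2 mCherry+ and plate 2 mCherry- wells. It was found in 73.3%, 60.6%, 92.9% and 50.0% of them. For hmgb2b, which encodes a DNA-bending protein of dividing cells, detection was 70.0%, 48.5%, 64.3% and 37.5%. For cd34 it was 68.3%, 48.5%, 28.6% and 37.5%, so that on plate 2 most marker-low wells had no cd34 UMI.

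Detection depends on depth, so every well was also thinned to 2000 UMIs. At this depth cd34 was seen in 44 of 115 marker-low wells (38.3%, 29.4 to 47.8), in 5 of 205 macrophage-marker wells (2.44%, 0.797 to 5.60) and in 3 of 112 lyz-rich wells (2.68%, 0.556 to 7.63). Without thinning the shares were 55.7%, 7.80% and 12.5%. By contrast, hmga1a was seen in 80.0% of thinned marker-low wells, 62.4% of macrophage-marker wells and 68.8% of lyz-rich wells, so its presence alone did not set marker-low wells apart. The shares of npm1a were 51.3%, 26.8% and 8.93%, and those of hmgb2b were 40.9%, 17.6% and 13.4%. Of the proposed markers, cd34 was thus the one close to absent from both mature classes.

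Genes that led marker-low wells over macrophage-marker wells in all 4 plate and gate groups included known regulators of early blood. MYB, a transcription factor required for definitive hematopoiesis, headed this ranking, with log2 ratios of mean CPM of 5.42, 5.22, 5.21 and 4.81 in plate 1 mCherry+, plate 1 mCherry-, plate 2 mCherry+ and plate 2 mCherry- wells. MYB was detected in 50.4% of marker-low wells, 3.41% of macrophage-marker wells and 32.1% of lyz-rich wells. The smallest of the 4 log2 ratios was 3.17 for RHAG, an ammonium channel of red cells, 2.58 for RUNX3, a Runt-domain factor, 2.55 for STMN1, a microtubule regulator of dividing cells, 2.50 for FLI1, an ETS factor, 2.24 for hmgb1b and 2.10 for EPOR, the erythropoietin receptor. FLI1 and RUNX3 were not peculiar to these wells: FLI1 was detected in 31.3% of marker-low and 58.0% of lyz-rich wells, RUNX3 in 28.7% and 42.9%.

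Other HSPC factors were detected in fewer wells. LMO2, a bridging factor of the erythroid and stem cell complexes, had UMIs in 35.7% of marker-low and 11.7% of macrophage-marker wells, and its partner TAL1 in 29.6% and 2.44%. KIT, the stem cell factor receptor, was found in 16.5% and 3.41%, and MEIS1 in 18.3% and 2.93%. The zebrafish gene gata2b, an HSPC factor, was found in 18.3% of marker-low wells and in 0 of 205 macrophage-marker and 0 of 112 lyz-rich wells, with upper exact limits of 1.78% and 3.24%. RUNX1, whose enhancer drives the mCherry transgene, had 0 UMIs in the 1098614 UMIs of all marker-low wells, which allows up to 2.73 CPM, so its transcript was not detectable at this depth. Myeloid factors ran the other way: SPI1 was detected in 34.8% of marker-low and 91.2% of macrophage-marker wells, and CEBPA in 22.6% and 80.5%.

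The same wells often held several of these transcripts. Of 64 wells with cd34, 47 also had MYB, 22 had gata1a, 16 had RUNX3 and 14 had SPI1. Nearly all wells with gata1a, the erythroid master factor, had cd34 too, as 22 of 23 did. Deeper wells show more genes, and these counts are at full depth.

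As lists, marker-low wells had medians of 3338 CPM for the 4 proposed markers summed, 7715 CPM for chromatin genes and 2484 CPM for nucleolar and ribosome assembly genes. Macrophage-marker wells had 707.5, 2978 and 892.2 CPM, and lyz-rich wells 662.8, 2916 and 586.4 CPM. The chromatin list holds hmga1a and hmgb2b, and the nucleolar list holds npm1a. The levels of these lists are thus not separate from those of the proposed markers. The list of HSPC factors, which also holds SPI1 and CEBPA, was not higher in marker-low wells, with a median of 1173 CPM against 1302 CPM in macrophage-marker and 1617 CPM in lyz-rich wells. The macrophage list stood at a median of 415 CPM in marker-low wells and 14870 CPM in macrophage-marker wells, a difference that the selection itself used in part. The neutrophil list, with 11 of 16 members matched to a row, had a median of 1535 CPM against 108100 CPM in lyz-rich wells. It holds lyz, the gene that separates these classes, so the selection used this difference in part as well. Within the marker-low wells, the chromatin list had medians of 10930 CPM in plate 1 mCherry+, 3622 CPM in plate 1 mCherry-, 7115 CPM in plate 2 mCherry+ and 4495 CPM in plate 2 mCherry- wells.

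Several lists of unrelated tissue had no UMI in many of these wells. The endothelial list, with 12 of 17 members matched, was at 0 in 59 of 115 wells, the fibroblast list in 49 and the neural and pigment list in 40. In the same order they were at 0 in 78, 80 and 105 of 205 macrophage-marker wells and 41, 47 and 79 of 112 lyz-rich wells. Zeros were thus common in all classes, and for the neural list they were rarer in marker-low wells. The fibroblast list holds col1a1a, which the selection used. The lymphoid list was at 0 in 43 wells, with a median of 160.4 CPM and a highest value of 6010 CPM, against medians of 0 CPM in macrophage-marker wells, 217.6 CPM in lyz-rich wells and 1274 CPM in sub-cluster 3. The lymphoid defining gene RAG1 had no UMI in any marker-low well. A summed level of at least 1% of a well's UMIs was reached by the erythroid list in 3 wells, the epithelial list in 2 and the muscle list in 9, and all of the last 9 were on plate 2. Muscle transcripts were present everywhere: their median was 2357 CPM on plate 1 and 9195 CPM on plate 2 in marker-low wells, and 1989 and 6134 CPM in macrophage-marker wells. Their part in the differences between plates was not tested.

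Clustering of the 115 wells on their own gave 7 sub-clusters, and these did not all bear out the name progenitor-like. Sub-clusters 1, 3, 4 and 6, with 73 wells, had median summed levels of the 4 proposed markers of 5392, 5365, 6083 and 5882 CPM. Sub-clusters 2, 5 and 7 had 1206, 838 and 370 CPM, close to the 707.5 CPM of macrophage-marker wells. The genes that define the sub-clusters are a description and were not tested, and the heat map of mean levels shows them side by side.

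**Figure D2:**
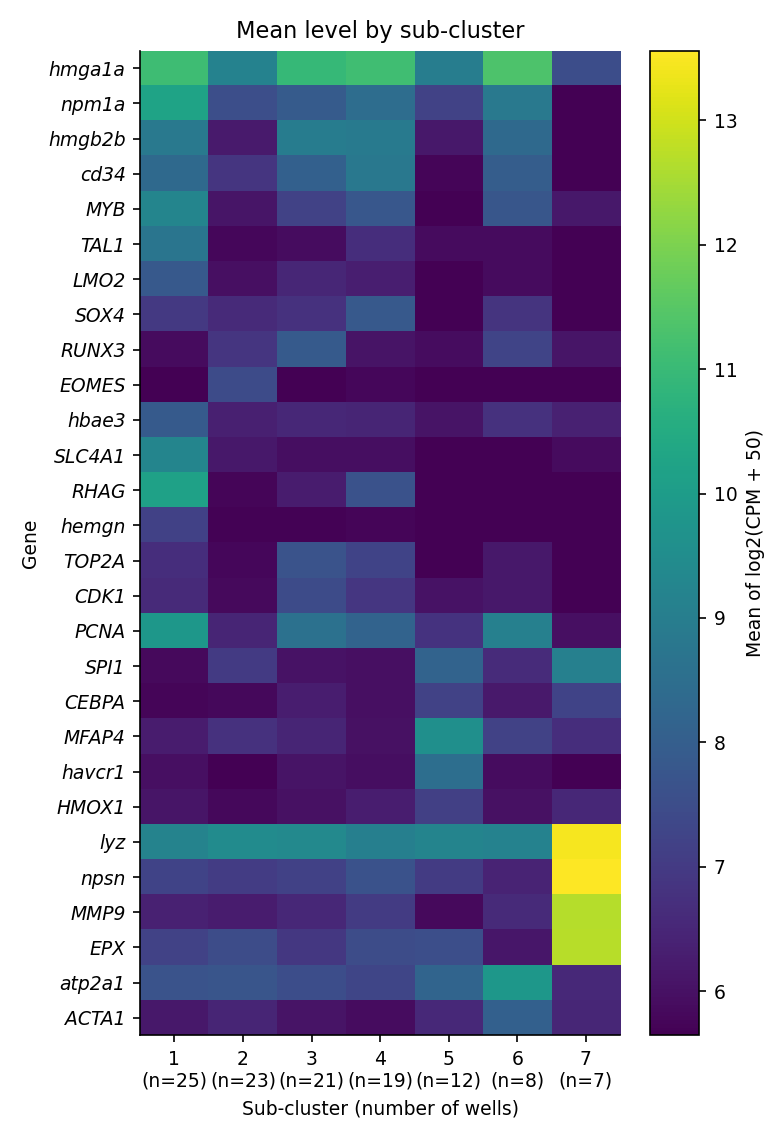
Mean of log2(CPM + 50) of 28 genes (rows) in the 7 sub-clusters of marker-low wells (columns, with the number of wells). Of the proposed markers, hmga1a is brightest in sub-clusters 1, 3, 4 and 6, and npm1a in sub-cluster 1. Globin and red cell genes are bright in sub-cluster 1, MFAP4 in sub-cluster 5, muscle genes in sub-cluster 6, and lyz, npsn and MMP9 in sub-cluster 7.

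Sub-cluster 1, with 25 wells, was erythroid-like by its markers while keeping the progenitor genes. All 4 proposed markers and 12 of 22 erythroid rows were raised, that is, at least 1 log2 unit above the mean of the other sub-clusters. SLC4A1, the anion exchanger of red cells, was detected in 19 of 25 wells against 13 of 90 other wells, and RHAG in 24 of 25. The embryonic globin gene hbae3 was found in 17 of 25 wells, with a mean of 17940 CPM against 67.6 CPM in other wells. Few wells carried that mean. For the summed erythroid list, 1 well of 3348 UMIs reached 498374 CPM, and 2 others reached 163650 and 107354 CPM. All 3 were plate 1 mCherry+ wells, and the median of the sub-cluster was 4218 CPM. At low level globin is no marker of these wells: after thinning, hbae3 was seen in 15.7% of marker-low wells, 11.2% of macrophage-marker wells and 15.2% of lyz-rich wells.

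Regulators of progenitors and of the erythroid lineage were found in the same wells. In sub-cluster 1, MYB was found in 24 of 25 wells, TAL1 in 22, cd34 in 21, LMO2 in 21 and gata1a in 17. The growth program was raised too, with 14 of 21 nucleolar rows, among them npm1a, ncl and FBL, and 9 of 17 rows of the MYC-linked list. These were also the deepest wells, with a median of 12568 UMIs, and they held 34.4% of all marker-low UMIs. By group they were 19 plate 1 mCherry+, 2 plate 1 mCherry-, 4 plate 2 mCherry+ and 0 plate 2 mCherry- wells.

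Sub-clusters 3 and 4 were named by no lineage. Of the 4 proposed markers, 2 were raised in sub-cluster 3 (hmga1a and hmgb2b) and 3 in sub-cluster 4 (hmga1a, hmgb2b and cd34). Sub-cluster 3 had 21 wells, all on plate 1, led among named genes by RUNX3 (13 of 21 wells against 20 of 94), cdca8, TOP2A and CDK1, the last 3 being genes of chromosome segregation and mitosis. Sub-cluster 4 had 19 wells, led by GMPS, a purine synthesis enzyme, and SOX4, a high-mobility-group factor of immature cells, which was seen in 12 of 19 wells. In sub-cluster 4, cd34 was found in 16 of 19 wells, a share near that of sub-cluster 1 with 21 of 25, and in sub-cluster 3 it was found in 13 of 21.

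Sub-cluster 2 had 23 wells, and 0 of the 4 proposed markers and 0 of 21 rows of HSPC factors were raised in it. Its leading gene was EOMES, a T-box factor known in mammals from natural killer and T cells, found in 12 of 23 wells and in 1 of the other 92. The cytokine receptor chain il2rb was found in 12 of 23 wells, sgcg in 14 and rgs18 in 14. Over all 115 marker-low wells, il2rb was found in 29, so it was not confined to this sub-cluster. MYB was found in 3 of 23 and cd34 in 9 of 23. The median depth was 4475 UMIs, the lowest of the 7, and only 1 row each of the thrombocyte and stress lists was raised, so the sub-cluster stays unnamed.

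Sub-cluster 2 also held most of the marker-low wells whose transcripts were of another make-up. In 8 wells the MYC-linked growth list summed to 0 to 2902 CPM, against a lowest value of 5083 CPM in the other marker-low wells, and 0 macrophage-marker or lyz-rich wells were under 3000 CPM. Of the 8 wells, 7 were in sub-cluster 2 and 1 in sub-cluster 3. Ribosomal protein genes took 0.446% to 1.80% of their UMIs, against a median of 19.0% over all marker-low wells. In 5 of them more than 0.5 genes were seen per UMI, which no other marker-low well reached, and the deepest of the 7 wells in sub-cluster 2 had 6968 genes in 17010 UMIs. EOMES was found in 1 of these 7 wells and in 11 of the other 16 of sub-cluster 2, rgs18 in 1 and 13, il2rb in 6 and 6, and sgcg in 7 and 7. Without the 8 wells the gate comparison called 157 genes in place of 116 and the shares were 47.2%, 20.7%, 12.3% and 6.93%; the part of these wells in the other values was not tested.

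Sub-clusters 5 and 7 went against the label. Sub-cluster 5, with 12 wells, was macrophage-like: 8 of 23 macrophage rows were raised, including MFAP4, IRF8 and havcr1, and the median of the macrophage list was 7186 CPM. Its leading gene ACOD1, the itaconate-producing enzyme of activated macrophages, was seen in 11 of 12 wells and 41 of 103 others, and cd34 in 1 of 12. Sub-cluster 7, with 7 wells, was neutrophil-like: 9 of 11 neutrophil rows were raised, npsn averaged 12740 CPM against 159.4 CPM elsewhere, and cd34, hmgb2b and npm1a had no UMI in any of the 7. Its lyz shares ran from 0.51% to 1.79%, under the limit of 2%. All 7 were plate 1 mCherry- wells.

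Sub-cluster 6, with 8 wells, carried muscle transcripts, with 12 of 24 muscle rows raised and atp2a1, the fast muscle calcium pump, in 7 of 8 wells. It also had a median of 5882 CPM for the proposed markers summed, of which hmga1a alone was raised, and MYB in 6 of 8 wells. It held 1 plate 1 well and 7 plate 2 wells, so a cell type and the muscle transcripts of plate 2 cannot be told apart in it.

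**Figure D3:**
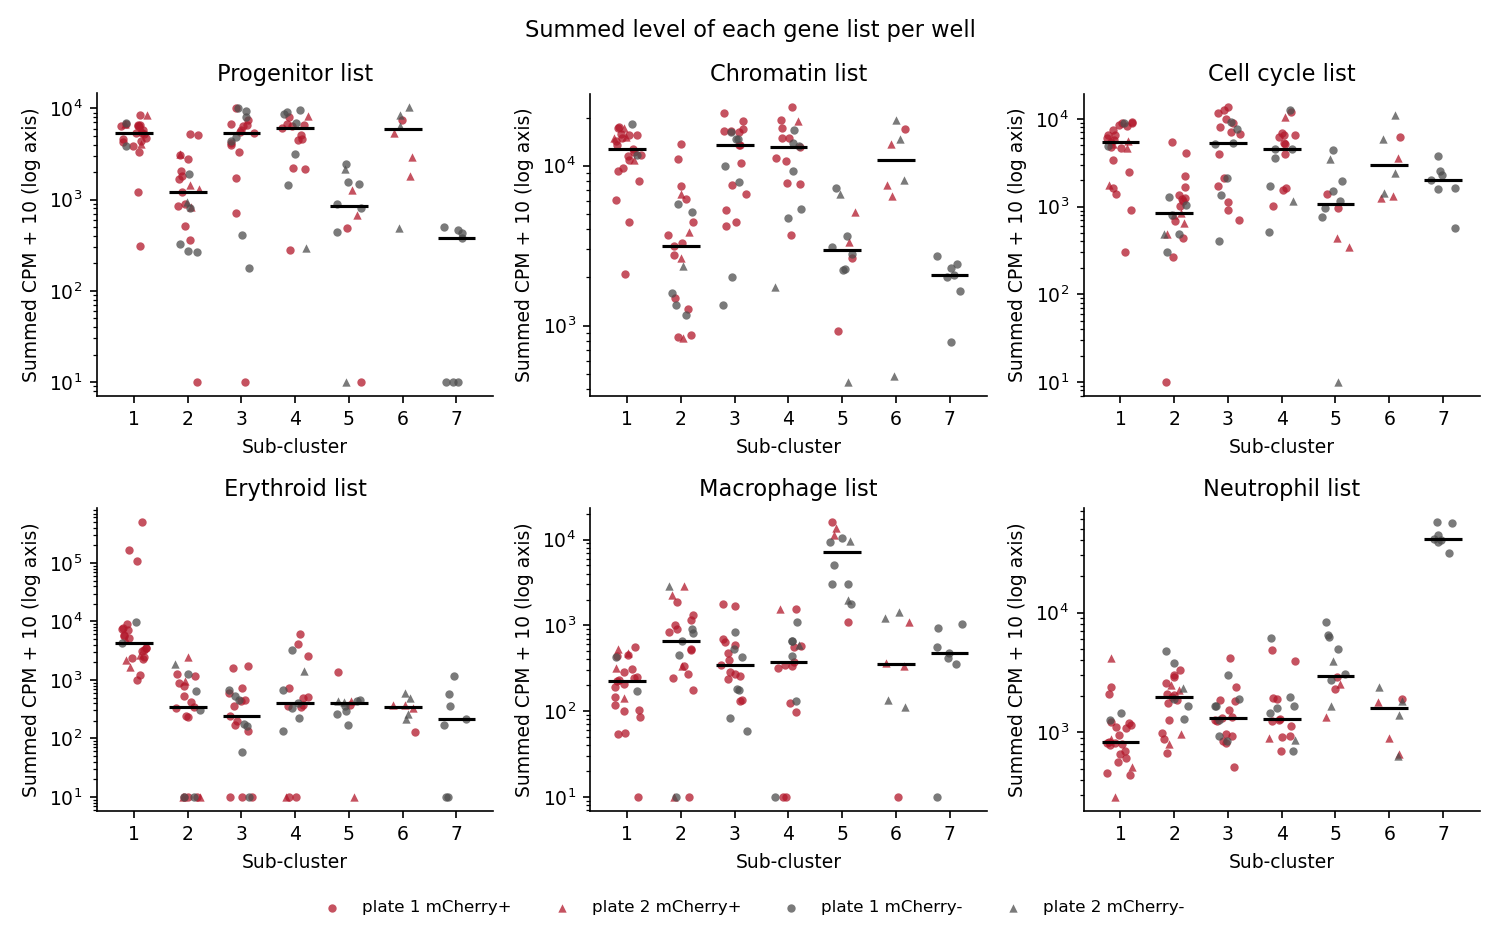
Summed level of 6 gene lists in each marker-low well (points, log axis, CPM + 10) by sub-cluster, with red for mCherry+ and gray for mCherry-, circles for plate 1 and triangles for plate 2, and the sub-cluster median as a line. The macrophage list is highest in sub-cluster 5 (median 7186 CPM), the neutrophil list in sub-cluster 7 and the erythroid list in sub-cluster 1 (median 4218 CPM).

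Cell cycle transcripts were common among marker-low wells. After thinning to 2000 UMIs, 82 of 115 wells (71.3%, 62.1 to 79.4) had at least 2 of the 34 cell cycle rows, against 89 of 205 macrophage-marker wells (43.4%, 36.5 to 50.5) and 60 of 112 lyz-rich wells (53.6%, 43.9 to 63.1). By group the shares were 81.7% of 60 plate 1 mCherry+ wells, 57.6% of 33 plate 1 mCherry- wells, 64.3% of 14 plate 2 mCherry+ wells and 62.5% of 8 plate 2 mCherry- wells. On each plate the intervals of mCherry+ and mCherry- wells overlapped. Unthinned, the shares were 86.7%, 81.8%, 85.7% and 62.5%.

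By sub-cluster, 23 of 25 wells of sub-cluster 1, 20 of 21 of sub-cluster 3, 17 of 19 of sub-cluster 4 and 8 of 8 of sub-cluster 6 had such transcripts. Of sub-cluster 2 it was 10 of 23, of sub-cluster 5 it was 4 of 12, and of sub-cluster 7 it was 0 of 7, with an upper exact limit of 41.0%. The phases differed in level: DNA replication genes such as PCNA had a median of 2858 CPM in sub-cluster 1 and 663.8 CPM in sub-cluster 3, and G2 and M genes such as TOP2A had 962.9 and 1994 CPM. These values describe transcripts and are no measure of division.

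The gate comparison asked what differs between mCherry+ and mCherry- wells among marker-low wells. The wells of a plate and gate were added up into 1 profile, with 666651 UMIs for plate 1 mCherry+, 272498 for plate 1 mCherry-, 114588 for plate 2 mCherry+ and 44877 for plate 2 mCherry-. With edgeR's quasi-likelihood test and the plate as a block, 116 of 2848 genes (4.07%) passed a Benjamini-Hochberg adjusted p of 0.05. Of all genes tested, 18 (0.632%) were higher and 98 (3.44%) lower in mCherry+ wells, and 110 of the 116 had the same direction on both plates by CPM.

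The higher side included erythroid genes. SLC4A1 had 667 UMIs in plate 1 mCherry+, 41 in plate 1 mCherry-, 24 in plate 2 mCherry+ and 0 in plate 2 mCherry- wells, a log2 difference of 2.83 ± 0.48 (SE, adjusted p = 0.0005, edgeR). On both plates the mCherry+ sum was the higher. Of 10 erythroid rows tested, 5 were called higher (hbae3, SLC4A1, epb41b, hemgn and RHAG), 10 of 10 had a positive difference and their median was 2.04, against -0.0016 over all genes tested. Epb41b and SPTB encode membrane skeleton proteins of red cells, and hemgn encodes an erythroid nuclear factor. Their log2 differences were 3.01 ± 0.84 for epb41b (adjusted p = 0.036, edgeR), 2.21 ± 0.61 for SPTB (adjusted p = 0.033) and 3.02 ± 0.74 for hemgn (adjusted p = 0.013). hbae3 was called as well, but its direction differed between plates: it had 3207, 15, 11 and 5 UMIs in the 4 sums, and 1 well held 33.4% of them.

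Of the genes of growth and iron storage, npm1a, VARS1, pelp1 and fth1a were higher, while the ferritin gene fthl27 was lower (-1.81 ± 0.38, adjusted p = 0.0041, edgeR). The ferritin heavy chain gene fth1a stood at 3174, 1266, 2313 and 512.8 CPM in plate 1 mCherry+, plate 1 mCherry-, plate 2 mCherry+ and plate 2 mCherry- sums, with a log2 difference of 1.58 ± 0.35 (adjusted p = 0.0068, edgeR). npm1a stood at 1080, 583.6, 1650 and 334.4 CPM, with a log2 difference of 1.36 ± 0.38 (adjusted p = 0.033, edgeR). In both genes each mCherry+ sum exceeded each mCherry- sum. VARS1, a valine tRNA ligase, and pelp1, a component of ribosome assembly, were higher by 2.50 ± 0.69 and 2.75 ± 0.80 (adjusted p = 0.033 and 0.046, edgeR). The surfactant protein gene sftpba was at 39 UMIs in plate 1 and 11 in plate 2 mCherry+ wells and at 0 in both mCherry- sums, at least 6.77-fold higher against a floor of 3 counts over both mCherry- sums, and its UMIs came from 10 wells.

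The lower side included myeloid genes. The gelatinase gene MMP9 had 41 UMIs in plate 1 mCherry+, 401 in plate 1 mCherry-, 1 in plate 2 mCherry+ and 12 in plate 2 mCherry- wells, a log2 difference of -4.72 ± 0.49 (adjusted p = 3.2e-07, edgeR). Of the 401 UMIs, 358 lay in the 7 neutrophil-like wells of sub-cluster 7, whose lyz shares of 0.51% to 1.79% were under but near the limit of the rule. ACOD1 had 35, 227, 16 and 33 UMIs (-3.42 ± 0.44, adjusted p = 1.7e-05), and samsn1a, an adaptor of immune cells, had 12, 92, 10 and 16 (-3.40 ± 0.52, adjusted p = 0.00017). In these genes both mCherry- sums lay above both mCherry+ sums in CPM. The collagenase gene mmp13a (-2.88 ± 0.55, adjusted p = 0.0014, edgeR) rested on plate 1, with 67 UMIs in mCherry+ and 292 in mCherry- wells, while on plate 2 it had 6 and 2 UMIs, or 52.4 and 44.6 CPM, so the mCherry+ sum was slightly the higher there. NDRG1, a hypoxia-induced gene, had 46.8% of its UMIs in 1 well. The named genes of the lower side ranged from -4.72 to -2.77, and included lygl1, a lysozyme family gene (-3.24 ± 0.60, adjusted p = 0.0012, edgeR).

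Of 7 neutrophil rows tested 5 were called lower (MMP9, mmp13a, npsn, srgn and NCF1), with a median of -2.54. The neutrophil granule gene npsn had 605 of its UMIs in plate 1 mCherry- wells and went the other way on plate 2, with 17 UMIs in mCherry+ and 2 in mCherry- wells. Of 8 macrophage rows 2 were called lower (MFAP4 and SLC7A7), with a median of -1.09. The myeloid factors SPI1 (-1.94 ± 0.53, adjusted p = 0.032) and CEBPA (-2.21 ± 0.60, adjusted p = 0.032) were the called genes among 9 tested HSPC factors, and both were lower. MYB differed by 0.91 ± 0.38 (adjusted p = 0.20, edgeR), TAL1 by 1.58 ± 0.51 (adjusted p = 0.075) and RUNX3 by 0.36 ± 0.51 (adjusted p = 0.78). Immediate-early genes FOSB (-2.21 ± 0.45) and JUND (-1.93 ± 0.52) were lower, and they were 2 of 11 tested on that list.

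**Figure D4:**
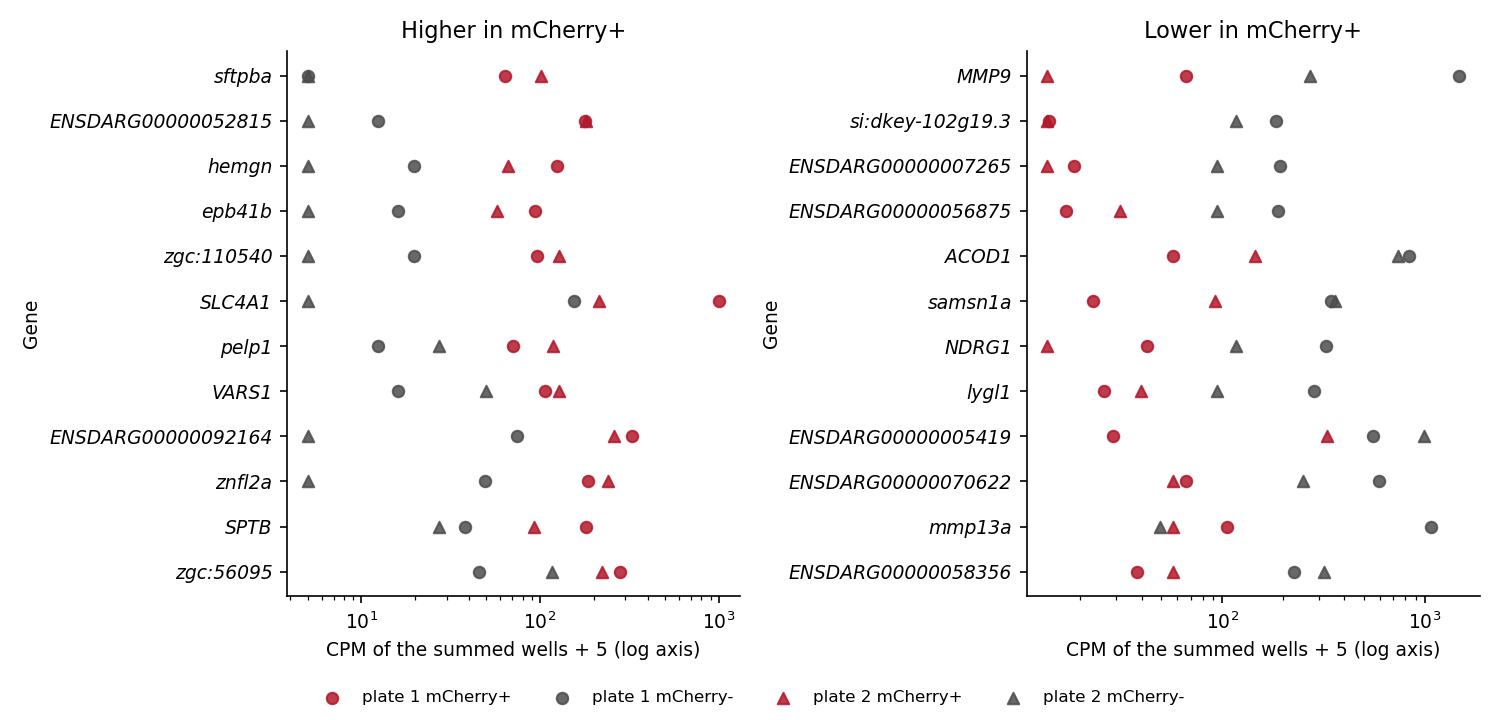
CPM of the summed marker-low wells (+ 5, log axis) in each plate and gate for the 12 genes with the largest higher and the 12 with the largest lower log2 difference that passed the test and the naming rule. Red marks mCherry+, gray mCherry-, circles plate 1 and triangles plate 2; mCherry+ and mCherry- symbols separate on both plates for all genes but mmp13a, where the plate 2 sums are close and in the other order.

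The proposed markers did not move as a group. Only npm1a was called higher and cd34 was called lower, at 414.1, 675.3, 305.5 and 1249 CPM in plate 1 mCherry+, plate 1 mCherry-, plate 2 mCherry+ and plate 2 mCherry- sums (log2 difference -1.39 ± 0.38, adjusted p = 0.028, edgeR). This is the opposite order to its detection on plate 1, where 68.3% of mCherry+ and 48.5% of mCherry- wells had a UMI. Without the 8 wells of sub-cluster 6 the sign of the cd34 difference turned, to 0.15 (adjusted p = 0.95). hmga1a differed by 0.21 ± 0.33 (adjusted p = 0.80) and hmgb2b by 0.35 ± 0.37 (adjusted p = 0.68).

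Lists of cell growth differed mostly in 1 direction, with few calls. All 20 nucleolar rows tested had a positive log2 difference, with a median of 1.14 and npm1a as the called gene. Of 30 chromatin rows 29 were positive (median 0.79), of 22 cell cycle rows 19 were (median 0.62) and of 16 MYC-linked rows 14 were (median 0.42), with 0 called on each of these lists. The median over all genes tested was -0.0016. In sub-cluster 1, 14 of 21 nucleolar and 16 of 37 chromatin rows were raised. It held 45.7% of plate 1 mCherry+, 5.78% of plate 1 mCherry-, 50.2% of plate 2 mCherry+ and 0% of plate 2 mCherry- UMIs. Its part in these list differences was not tested. At unadjusted p under 0.05, 483 of the 2848 genes passed. DESeq2 called 9 genes in all, 1 higher and 8 lower. Of the remaining lists, thrombocyte (f13a1b), mast or eosinophil-like (EPX), stress (prdx1) and endoplasmic reticulum (XBP1) genes had 1 called lower each. The rows tested on these lists were 2, 2, 10 and 7. EPX lay with the neutrophil-like wells, at a mean of 6881 CPM in sub-cluster 7 and 190.1 CPM in other marker-low wells. Its list had a median of 8231 CPM in lyz-rich wells, so the list name is not borne out for EPX. The uptake list had fth1a called higher among 6 rows tested. Lymphoid, endothelial, epithelial, metaphocyte, muscle, neural and fibroblast lists had 0 called of 2, 1, 3, 1, 13, 1 and 1 rows tested. Over all genes tested 4.07% were called, so with so few rows a count of 0 or 1 says little. All 13 muscle rows tested had a negative log2 difference in the sums, with a median of -0.92. The medians of the muscle list per well went the other way. They were 2388 CPM in mCherry+ and 2206 CPM in mCherry- wells on plate 1, and 9427 and 8143 CPM on plate 2. The shallowest well, a plate 2 mCherry- well, had 260826 CPM of muscle transcripts, and its part alone in the sums was not tested.

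Where the called genes' transcripts lay was measured next. Of the 98 lower genes, 62 had more than 50% of their marker-low UMIs in the 19 wells of sub-clusters 5 and 7, with a median of 56.1%, against a median of 8.13% over all genes tested. Of the 18 higher genes, 17 had more than 50% in the 25 wells of sub-cluster 1, with a median of 75.1% against 35.6% over all genes tested. Sub-clusters 5 and 7 supplied 4 of 74 mCherry+ and 15 of 41 mCherry- wells, and sub-cluster 1 supplied 23 and 2. The sub-clusters were made from these same transcripts and are uneven between gates, so genes called by gate are likely to lie in them. Both relations are thus a description and no separate support for the calls. The plot of gate difference against the location of UMIs shows them.

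**Figure D5:**
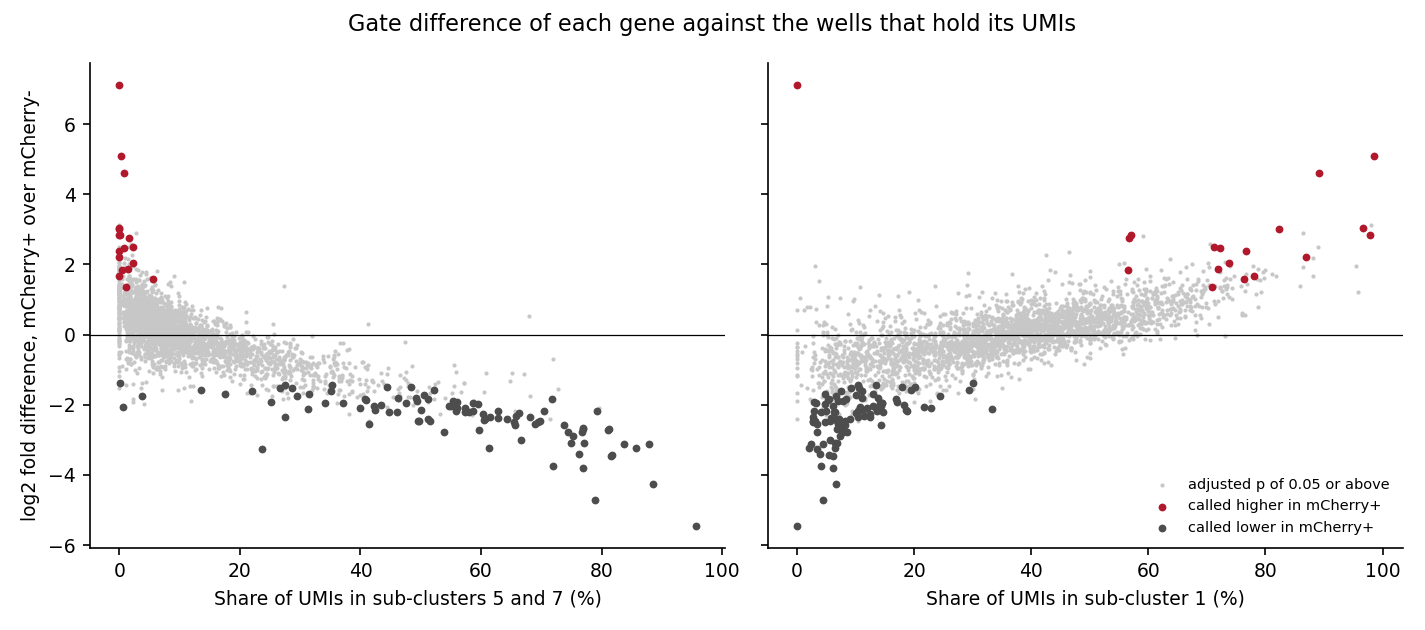
Log2 fold difference of each of the 2848 tested genes (mCherry+ over mCherry-) against the percentage of its marker-low UMIs found in sub-clusters 5 and 7 (left) and in sub-cluster 1 (right). The 98 genes called lower (dark) reach the right side of the left panel, and 17 of the 18 called higher (red) lie above 50% in the right panel.

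Without the wells of sub-clusters 5 and 7, edgeR called 0 of 2046 genes, with 154 at unadjusted p under 0.05 and a lowest adjusted p of 0.051. Of the 116 genes, 61 could be tested there and 59 kept their direction. The genes had been called partly on these same wells, which held 89.3% of marker-low UMIs, so a kept direction is no independent support. Without sub-cluster 1, 38 genes were called, and the npm1a difference was 0.14 in place of 1.36. Without the plate block 0 genes were called, with 431 at unadjusted p under 0.05. The residual degrees of freedom were 1, so the p-values rest largely on the spread shared over genes, and nothing in the labels says whether the plates came from separate clutches.

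Lastly, the gate difference of marker-low wells was set against that of macrophage-marker wells, by an interaction term over 8 sums. It differed for 52 of 6524 genes (0.797%), 3 with a larger and 49 with a smaller mCherry+ over mCherry- ratio in marker-low wells. fth1a, at 3174, 1266, 2313 and 512.8 CPM in marker-low wells, stood at 844.1, 981.7, 540.2 and 809.8 CPM in macrophage-marker wells, a difference of log2 differences of 2.13 ± 0.40 (adjusted p = 0.018, edgeR). npm1a gave 2.13 ± 0.50 (adjusted p = 0.045). In both genes the mCherry+ sums were the higher in marker-low wells and the lower in macrophage-marker wells. Of the 4 proposed markers cd34 was called as well, in the opposite direction (-3.56 ± 0.79, adjusted p = 0.042, edgeR). It had 3, 6, 116 and 5 UMIs in the macrophage-marker sums, in the order used above. Of its 681 UMIs in both classes, 13.96% came from 1 macrophage-marker well of plate 2 mCherry+. That well held most of the 116 UMIs, and its part in the call was not tested.

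Of 12 genes tested on the uptake and heme list 4 were called, HMOX1, ctsl.1 and CTSD with a smaller ratio and fth1a with a larger one. In marker-low wells alone 6 genes of this list had enough UMIs to be tested. The others entered only once the macrophage-marker sums were added. The list also holds c1qa, which the selection used, so the count is not independent of how the wells were chosen. Of 21 genes tested on the stress list 0 were called, and 10 were tested in marker-low wells alone. Over all genes in the interaction 0.797% were called, so a count of 0 among 21 says little. In marker-low wells ctsl.1 had 5 UMIs in plate 1 mCherry+, 7 in plate 1 mCherry-, 1 in plate 2 mCherry+ and 1 in plate 2 mCherry- sums. Its ratio there is thus near the floor. Genes with a smaller ratio in marker-low wells also included CTSK, SQSTM1 and HSPB1. The cathepsin gene CTSK was at 10.5, 117.4, 61.1 and 133.8 CPM in marker-low wells (plate 1 mCherry+, plate 1 mCherry-, plate 2 mCherry+, plate 2 mCherry-) and at 945.7, 285.9, 1043 and 252.6 CPM in macrophage-marker wells, a difference of -4.40 ± 0.64 (adjusted p = 0.0038, edgeR). In marker-low wells CTSK had 52 UMIs in all, 52.0% of them from 1 well and 77.0% from sub-clusters 5 and 7. The autophagy receptor gene SQSTM1 differed by -3.05 ± 0.46 (adjusted p = 0.0038) and the small heat shock protein gene HSPB1 by -2.72 ± 0.44 (adjusted p = 0.0052). HMOX1, which encodes heme oxygenase, was at 5392, 641.1, 3661 and 352.8 CPM in macrophage-marker wells and at 85.5, 66.1, 52.4 and 0 CPM in marker-low wells (-2.54 ± 0.58, adjusted p = 0.042). Of its UMIs in marker-low wells 50.7% came from 1 well and most from sub-clusters 5 and 7. Without sub-cluster 1, 7 genes were called, without sub-clusters 5 and 7, 20, and without the plate block, 0, with 668 at unadjusted p under 0.05.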

How the data were processed

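SORT-seq libraries of single wells were analysed from 2 plates. The deposited tables hold estimated counts: the authors counted UMIs of 6 bases per gene and well and corrected them for repeated tags, and all values above 0 matched that formula within 0.006. The submitters' processing notes name BWA, Seurat and GRCz11. Versions were not given in the sources used here. Both plates use the same 384 well barcodes. Spike-ins were set aside (1.13% of counts), and 17425 of 22342 gene IDs had a symbol. Counts were rounded after summing. Gate and interaction were tested with edgeR 4.0.16 (TMM, filterByExpr), with the plate as a block since each plate held both gates, and checked on simulated counts. Each SE given after ± was derived from that test, as the absolute log2 difference divided by the square root of its F statistic. DESeq2 1.42.0 was an alternative. Sub-clusters came from scanpy 1.11.5 and Leiden (1500 variable genes, 20 components, 10 neighbors, resolution 1). CPM are per well or per sum. No doublet caller was run on sorted wells. Genes were named by rank among genes past the adjusted p of 0.05 with the same direction on both plates (log2 with 0.5 UMI added), at least 50 UMIs and no well holding over 50% of them, 12 per direction. Genes of 22 lists could be named too. The gene il2rb was added after its values were seen. The wells, lists and tests were chosen with earlier results of these data known. Shares carry 95% Clopper-Pearson intervals. mCherry and EGFP transcripts were not analysed here.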

Additional observations from a re-analysis of the deposited data

Results flagged for a closer look

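The gate difference differed between marker-low and macrophage-marker wells for 10 genes named by the lowest adjusted p of the interaction test (edgeR) among genes with at least 50 UMIs and no well holding over 50% of them across both classes. That limit left out COL4A1 (-9.77, adjusted p = 0.010), with 83.4% of its UMIs in 1 well. The differences of log2 differences, marker-low less macrophage-marker, were -4.40 for CTSK, -3.05 for SQSTM1, -4.38 for ENSDARG00000059295, -3.95 for MMP9, -2.72 for HSPB1, -2.72 for RASGEF1B, -2.40 for fthl27, 2.13 for fth1a, -3.56 for BAG3 and -4.35 for tcnbb (called at adjusted p between 0.0038 and 0.018). For MMP9 the marker-low sums carried the difference, with 401 UMIs in plate 1 mCherry- and 41 in plate 1 mCherry+ wells, and macrophage-marker sums of 8 to 49 UMIs. Of the 401 UMIs, 358 lay in the 7 neutrophil-like wells of sub-cluster 7. For tcnbb, 64.5% of marker-low UMIs came from 1 well. Of the fthl27 UMIs in marker-low wells 49.3% lay in sub-clusters 5 and 7, and of the fth1a UMIs 76.3% lay in sub-cluster 1; their part in the differences was not tested.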

How the results depend on the processing

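Alternatives that dropped wells of sub-clusters or wells low in MYC-linked genes, and those of the interaction on library totals, depth or the well rule, were chosen after seeing the data. The gate comparison (116 genes) gave 0 with no plate block (431 at unadjusted p under 0.05), 9 with DESeq2, 1 with 0 UMIs of the trio, 0 with lyz under 0.5% (329 unadjusted), 0 after thinning (57), 0 without the well of most UMIs in each sum (226), 36 without wells of another lineage, 0 without sub-clusters 5 and 7, 38 without sub-cluster 1 and 17 without sub-cluster 6, and 86 to 157 under the other settings. All 116 kept their direction with RLE scaling, library totals, no filter and DESeq2, which all used the same sums. The interaction (52 genes) gave 0 with no replicate block (668 unadjusted), 85 with library totals, 9 with DESeq2, 20 with 1000 UMIs, 3 with 0 UMIs of the trio, 0 after thinning (163 unadjusted), 29 without wells of another lineage, 20, 7 and 112 without sub-clusters 5 and 7, 1 and 6, and 53 to 70 otherwise. The causes were not tested. Leaving out a plate leaves no residual degrees of freedom, so it gives values with no test. Among 624 single-gene values, 1 turned its sign (cd34, 0.15 without sub-cluster 6) and 222 lost the call.

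The share of marker-low wells moved to 34.1% in plate 1 mCherry+ with 0 UMIs of the trio, to 14.3% in plate 1 mCherry- without sub-clusters 5 and 7, and, applying the rule after thinning, to 45.7%, 32.1% and 38.6% in plate 1 mCherry-, plate 2 mCherry+ and plate 2 mCherry- (57.7% in plate 1 mCherry+), so the higher share of mCherry+ wells on plate 2 did not hold there. Shares with cell cycle transcripts moved to 95.3%, 82.6%, 100% and 100% at 5000 UMIs, to 65.0% in plate 1 mCherry+ with 3 genes required and to 81.8% in plate 1 mCherry- without thinning.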
